A study of Arabidopsis thaliana with 36 samples.

Results

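Basal and medial hypocotyl segments of ahk3 ahk4 Arabidopsis seedlings were compared at 0 h after wounding. The comparison rests on 6 of the 36 libraries of the series, 3 basal and 3 medial, chosen by their labelled genotype, region and time. The ahk3 ahk4 plants are double mutants in the cytokinin receptor genes AHK3 and AHK4; the sources used here name neither the alleles nor where they lie relative to the 3' ends. The other groups used were the same mutant segments at 8 and 16 h, and basal and medial segments of wild type (WT, Col-0) at 0 h, with 3 biological replicates each. All seedlings had been stratified, given light overnight and then kept 5 days in low light, and every one was cut above the root-shoot junction, WT included. Pieces of 2 to 3 mm were taken at the base and in the middle of the hypocotyl, RNA was extracted, and QuantSeq libraries were made, which read only the 3' end of each polyadenylated transcript. How many seedlings went into a library, and whether replicates came from separate days, is not stated. The p-values therefore measure only the spread between libraries, which was estimated for each gene within groups over all 36 libraries.

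Cytokinin is sensed by the membrane histidine kinases AHK2, AHK3 and AHK4, which pass phosphate through AHP proteins to type-B response regulators in the nucleus. Type-B regulators switch on target genes, among them the type-A response regulators, which dampen the signal and serve as its usual transcript readout. A hypocotyl cut from its root can form adventitious roots near the cut base, in a process driven by auxin, and cytokinin is known to act against root formation. The young hypocotyl holds an epidermis, a green cortex, an endodermis and a vascular cylinder, and its cells grow by elongation.

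Reads assigned to genes numbered 9113339, 6136167 and 9137274 in basal replicates 1 to 3 and 9661737, 9232451 and 10232648 in medial replicates 1 to 3. The first principal component held 47% of the variance and separated basal from medial libraries, and log2 CPM (assigned counts scaled to a common library size) correlated at 0.928 to 0.947 within a region and at 0.861 to 0.915 between regions. Reads that aligned at more than 1 place, which were not counted, made up 54.3%, 60.3% and 44.2% of reads in the basal libraries and 18.5%, 30.9% and 39.8% in the medial libraries. This share was higher in every basal library, and the counts of changed genes are therefore also given with the share as a covariate. In WT at 0 h it ran from 34.9% to 40.5% in basal and from 18.2% to 40.9% in medial libraries.

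At 0 h, 2452 of 19819 genes tested differed between basal and medial ahk3 ahk4 segments (12.4%), at a Benjamini-Hochberg adjusted p under 0.05 in edgeR's quasi-likelihood test. Of these, 1020 genes were higher in basal segments (5.15%) and 1432 were lower (7.23%). The median size was 1.67 on the log2 scale among the higher and 1.59 among the lower genes, and 421 and 520 of them changed by at least 2. Basal and medial libraries did not overlap for 954 of the higher and 1325 of the lower genes; over all genes tested, 14.6% lay wholly higher and 14.5% wholly lower in basal libraries. With the share of multiply aligned reads as a covariate, 853 genes were higher and 978 lower. Without basal replicate 2 the higher genes numbered 646, and without medial replicate 2 they numbered 554. All log2 values below are basal over medial, with the standard error of the fit, and library values are CPM in the order of replicates 1 to 3.

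The mutated receptor genes were checked first. AHK3 read 3.38 to 8.71 CPM in ahk3 ahk4 basal libraries, against 138 to 164 CPM in WT basal libraries, and 4.46 to 8.51 CPM in ahk3 ahk4 medial libraries, against 81.7 to 102 CPM in WT medial libraries (ahk3 ahk4 over WT log2 -4.40 ± 0.37 and -3.85 ± 0.36, adjusted p = 8.73e-10 and 1.03e-08). AHK4 read 0.161 to 0.726 CPM in ahk3 ahk4 basal libraries, against 9.63 to 14.1 CPM in WT basal libraries, and 0.608 to 2.20 CPM in ahk3 ahk4 medial libraries, against 4.97 to 7.79 CPM in WT medial libraries (log2 -4.75 ± 0.63 and -2.11 ± 0.54, adjusted p = 6.43e-06 and 0.0148). Both transcripts were therefore lower than in WT in each region of the plants labelled ahk3 ahk4. Over all genes, ahk3 ahk4 and WT differed in 3.08% in basal segments (0.843% higher in the mutant and 2.24% lower) and in 5.77% in medial segments (2.61% higher and 3.16% lower). The intact receptor gene AHK2 read 2.70, 6.92 and 5.28 CPM in basal and 3.46, 2.33 and 2.58 CPM in medial mutant libraries (log2 0.82 ± 0.56, adjusted p = 0.386).

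Cytokinin signalling genes differed little between the regions of the mutant. None of the 8 tested receptor and AHP genes passed the test; 1 higher and 1 lower reached an unadjusted p under 0.05, and DESeq2 called neither. Among the type-A regulators, 1 of 8 was called. ARR16 read 0, 0 and 0.203 CPM in basal and 13.0, 4.66 and 2.20 CPM in medial libraries, so that every medial library was above every basal one. By summed counts, 2 basal reads against 186 medial reads, it was 81.6-fold higher in medial segments (95% counting interval 22.3 to 679; adjusted p = 0.00216). In WT its log2 difference was -2.60 (adjusted p = 0.167), and the difference between genotypes was not called (adjusted p = 0.593). ARR4, ARR5, ARR6, ARR7, ARR8, ARR9 and ARR15 did not pass the test, with mean levels of 82.1, 69.4, 23.4, 3.50, 23.0, 46.0 and 0 CPM in basal segments and 98.4, 84.4, 21.8, 6.05, 18.1, 33.1 and 0.260 CPM in medial segments. IPT3, a cytokinin synthesis gene, read 25.2, 38.5 and 19.2 CPM in basal and 13.4, 6.68 and 5.45 CPM in medial libraries (log2 1.70 ± 0.49, adjusted p = 0.0174). ARR1, a type-B regulator, was called higher as well (log2 1.22, adjusted p = 0.0167). Neither of these calls held with the share of multiply aligned reads as a covariate (adjusted p = 0.127 for IPT3 and 0.472 for ARR1) or without basal replicate 2 (0.106 and 0.119).

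Suberin genes were the clearest group higher in basal segments. Suberin is a fatty polyester laid down in the walls of the root endodermis, of periderm and of wounded tissue. Of 16 listed genes, all tested, 11 rose and 1 fell, with a median log2 difference of 4.61, against 0.02 over all genes tested; the median was 4.53 with genes that had no read in a region set at their bound. The same counts, 11 higher and 1 lower, were found in WT at 0 h, where 5.79% of all genes were called higher and 6.71% lower. In bulk segments, fewer cells of a type and less RNA per cell cannot be told apart, here and in each gene group that follows.

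CYP86A1, which hydroxylates the ends of fatty acids for suberin, read 17.2, 25.4 and 19.5 CPM in basal and 0.557, 0 and 0 CPM in medial libraries (log2 6.80 ± 0.90, adjusted p = 2.25e-06). CYP86B1, which acts on longer chains, read 17.1, 18.7 and 16.1 CPM in basal and 0.780, 0.101 and 0.478 CPM in medial libraries (log2 5.24 ± 0.61, adjusted p = 8.11e-08). The acyltransferase gene GPAT5 read 5.39, 5.63 and 4.57 CPM in basal and 0.334, 0 and 0 CPM in medial libraries (log2 5.47 ± 1.23, adjusted p = 0.00248). For all 3 the medial libraries held next to no reads. FAR4, a fatty acyl reductase gene, had 3.73, 10.1 and 3.66 CPM in basal libraries and no read in medial libraries; it was at least 51.3-fold higher, taking 3 counts over the group as the limit that a count of 0 allows. FAR5, its close relative, and ASFT, which adds ferulate to suberin, also rose (log2 5.54 ± 0.94 and 2.10 ± 0.54, adjusted p = 7.40e-05 and 0.00674). The transporter genes ABCG2, ABCG6 and ABCG20 rose, ABCG6 with 10.7, 10.8 and 15.4 CPM in basal and 0.780, 0 and 0.670 CPM in medial libraries (log2 4.65 ± 0.73, adjusted p = 1.87e-05). So did the transcription factor genes MYB53 and MYB93 (log2 4.80 ± 1.11 and 4.57 ± 0.80, adjusted p = 0.0027 and 0.000156).

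The fatty acid elongase gene KCS2 went the other way, with 48.4, 55.0 and 77.9 CPM in basal and 189, 290 and 242 CPM in medial libraries (log2 -1.99 ± 0.26, adjusted p = 7.02e-07). KCS2 and KCS20 together supplied much of the list's reads, and the summed level of the 16 genes was lower in basal libraries, at 219 to 338 CPM, against 350 to 498 CPM in medial libraries. FAR1 (AT5G22500), KCS20, MYB41 and MYB92 did not pass the test (log2 -1.55, -1.01, 3.50 and 0.93). FACT, which makes caffeate esters of fatty alcohols found in root waxes, stood outside the list and had the highest log2 difference of the genes named by the rule for naming. It read 22.5, 30.6 and 18.5 CPM in basal libraries and had no read in medial libraries, 589 counts against 0, which is at least 224-fold higher (adjusted p = 0.000277). Others in the same class, with no medial read, were the lipid-transfer protein gene AT3G58550 (at least 89.6-fold), the E6-like gene AT2G33850 (at least 90.4-fold), the pectin methylesterase inhibitor gene AT5G20860 (at least 58.1-fold) and the peroxidase gene AT1G68850 (at least 55.1-fold). A second lipid-transfer protein gene, AT2G18370, read 38.0, 48.6 and 24.4 CPM in basal and 0.334, 0 and 0 CPM in medial libraries, 345-fold by summed counts (95% counting interval 118 to 1677). PELPK1, a hydroxyproline-rich wall protein gene, read 61.5, 68.2 and 79.5 CPM in basal and 2.34, 0 and 0.191 CPM in medial libraries (log2 6.42 ± 0.89, adjusted p = 9.66e-06). AT4G20390, which encodes a protein of the UPF0497 family, read 37.3, 34.9 and 37.8 CPM in basal and 1.11, 0 and 0 CPM in medial libraries (log2 6.67 ± 1.01, adjusted p = 3.05e-05).

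**Figure D1:**
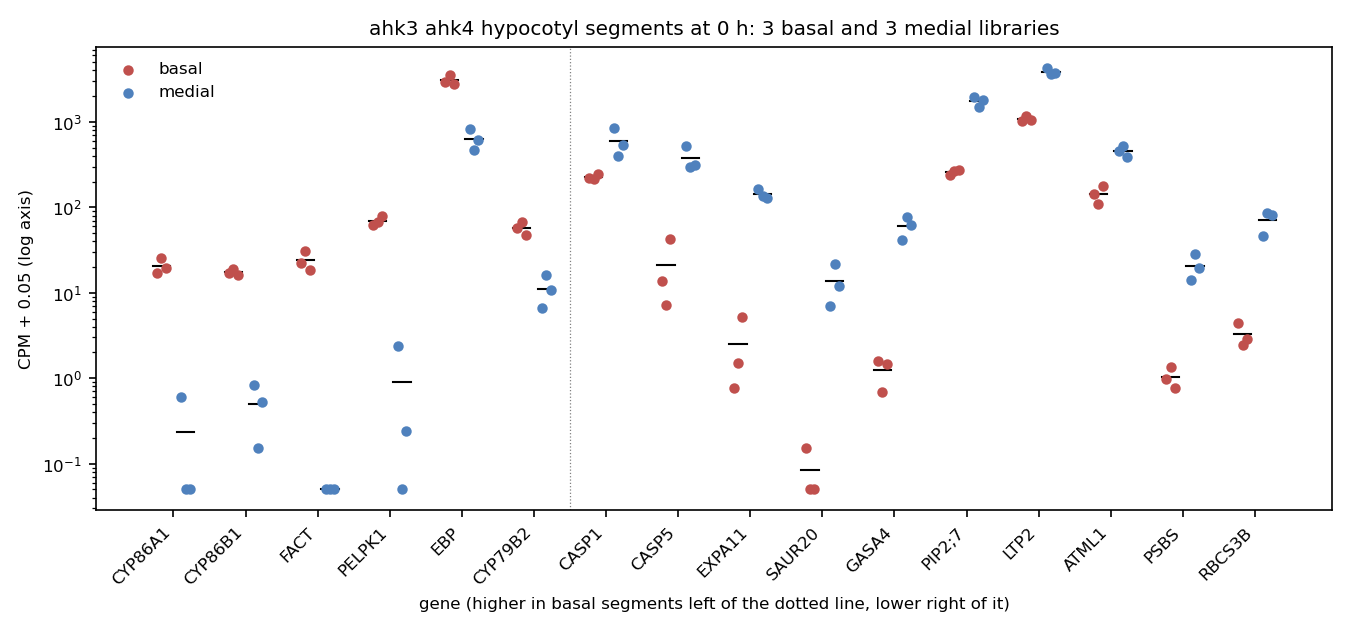
CPM in each ahk3 ahk4 library at 0 h for 16 genes, on a log axis after adding 0.05 so that values of 0 can be drawn; red points are the 3 basal libraries, blue points the 3 medial libraries, and lines the means. In the first 6 genes every basal point lies above every medial point, and in the other 10 every basal point lies below every medial point.

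Casparian strip genes, by contrast, were lower in basal mutant segments. The Casparian strip is the lignin band that seals the young endodermis. Of 15 listed genes, 7 fell and the other 8 did not pass the test, and the median log2 difference was -0.82. CASP1, a scaffold protein of the strip, read 219, 217 and 248 CPM in basal and 846, 403 and 541 CPM in medial libraries (log2 -1.39 ± 0.28, adjusted p = 0.000482). CASP5 read 13.6, 7.08 and 42.7 CPM in basal and 525, 299 and 312 CPM in medial libraries (log2 -4.15 ± 0.60, adjusted p = 1.71e-05). The basal and medial libraries of CASP1 and CASP5 did not overlap. CASP2 and CASP4 fell by 2.25 ± 0.40 and 1.75 ± 0.39 on the log2 scale (adjusted p = 0.000149 and 0.00205). PER64, the peroxidase of strip lignification, read 65.1, 60.7 and 58.1 CPM in basal and 317, 209 and 189 CPM in medial libraries (log2 -1.96 ± 0.30, adjusted p = 9.66e-06). ESB1, a dirigent protein that places the lignin, read 370, 413 and 351 CPM in basal and 1025, 657 and 738 CPM in medial libraries (log2 -1.09 ± 0.32, adjusted p = 0.0171). MYB36, which switches on the strip genes, read 26.3, 30.1 and 28.1 CPM in basal and 36.6, 49.4 and 37.9 CPM in medial libraries, a difference that did not pass the test (log2 -0.55, adjusted p = 0.128). SHR and SCR, which specify the endodermis, were also not called (log2 -0.28 and -0.41).

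In WT at 0 h, 1 of these 15 genes was called lower and 1 higher. WT CASP1 read 621, 790 and 724 CPM in basal and 527, 604 and 875 CPM in medial libraries, and these overlapped (log2 0.09, adjusted p = 0.893). CASP5 was the gene called lower there (log2 -2.18, adjusted p = 0.0075). The summed level of the list was 951 to 1022 CPM in ahk3 ahk4 basal and 2143 to 3559 CPM in ahk3 ahk4 medial libraries, and 2407 to 2723 CPM in WT basal and 2387 to 3818 CPM in WT medial libraries. The ahk3 ahk4 basal libraries thus lay below the other 3 groups. The genotype by region interaction, which tests the difference between genotypes itself, called none of the 15 genes; over all genes it called 47 (0.237%). At an unadjusted p under 0.05 it was more negative in the mutant for 9 of the 15. For CASP1 it was -1.48 ± 0.38 on the log2 scale (adjusted p = 0.0923), and DESeq2, which called 2 of the 15, called CASP1 (adjusted p = 0.0357). Whether the genotypes differ in this group thus turned on the tool.

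Auxin-responsive growth genes fell in basal segments. SAUR proteins keep the plasma membrane proton pump active and so loosen the wall in elongating cells. Of 17 SAUR growth genes tested, 14 fell and the other 3 did not pass the test, and their summed level was 4.02 to 6.09 CPM in basal and 63.9 to 129 CPM in medial libraries. The median log2 difference was -5.96 as fitted and -4.55 with genes that had no basal read at their bound. SAUR20 read 0.104, 0 and 0 CPM in basal and 7.02, 21.7 and 11.9 CPM in medial libraries, 1 read against 401, which is 352-fold higher in medial segments by summed counts (95% counting interval 62.8 to 13935; adjusted p = 5.20e-09). SAUR22 had no basal read and 2.12, 12.2 and 17.6 CPM in medial libraries, at least 94.5-fold lower in basal segments. SAUR62 read 0, 0 and 0.609 CPM in basal and 5.69, 8.51 and 5.07 CPM in medial libraries (log2 -4.75 ± 0.79). The members of each SAUR cluster are near-identical in sequence, and since multiply aligned reads were not counted, how reads split among them is uncertain. With the replicate number as a block the count was 10. In WT, 10 of the 17 fell. The interaction called 2 of the 17 as more negative in the mutant, where 0.207% of all genes were so called. At an unadjusted p under 0.05 it was more negative for 10, and DESeq2 called 3.

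Aux/IAA proteins, repressors that auxin removes and whose genes auxin induces, and GH3 enzymes, which conjugate auxin, gave 9 lower genes among 19 tested, with a median log2 difference of -1.23. IAA17 read 157, 196 and 182 CPM in basal and 1155, 726 and 714 CPM in medial libraries (log2 -2.28 ± 0.28, adjusted p = 2.46e-07). IAA1 read 7.15, 7.08 and 4.47 CPM in basal and 22.1, 36.7 and 36.7 CPM in medial libraries (log2 -2.36 ± 0.36, adjusted p = 9.56e-06). IAA7, IAA3 and IAA14 fell by 1.26 ± 0.22, 1.31 ± 0.23 and 2.73 ± 0.56 on the log2 scale (adjusted p = 7.20e-05, 8.96e-05 and 0.000794). Basal and medial libraries did not overlap for any of these 5 genes. Against 7.23% of all genes tested, 2 of 17 auxin transport and synthesis genes fell. These were ABCB19, an auxin exporter, with 39.3, 40.4 and 44.7 CPM in basal and 80.5, 91.3 and 89.2 CPM in medial libraries (log2 -1.07 ± 0.25, adjusted p = 0.00254), and the exporter gene PIN7 (log2 -0.79 ± 0.20, adjusted p = 0.0055), which was not called with the replicate block (adjusted p = 0.0679). Of 25 gibberellin and brassinosteroid genes, 6 fell and 1 rose. GASA4, a gibberellin-regulated peptide gene, read 1.56, 0.644 and 1.42 CPM in basal and 41.7, 77.7 and 62.2 CPM in medial libraries (log2 -5.58 ± 0.53, adjusted p = 2.46e-09). BEE1, a brassinosteroid-induced transcription factor gene, fell by 1.23 on the log2 scale (adjusted p = 0.00189).

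Genes of wall loosening and water transport followed the same direction. Expansins slip wall polymers past each other without cutting them; of 12 tested, 9 fell and 1 rose in the mutant, with a median log2 difference of -2.14, and 9 fell and 1 rose in WT. EXPA11 read 0.726, 1.45 and 5.18 CPM in basal and 166, 135 and 128 CPM in medial libraries (log2 -5.82 ± 0.51, adjusted p = 1.52e-09). EXPA3 read 2.90, 0.322 and 3.55 CPM in basal and 62.2, 59.1 and 62.7 CPM in medial libraries (log2 -4.68 ± 0.48, adjusted p = 1.32e-08). EXPA5 and EXPA8 fell by 5.07 ± 0.55 and 6.92 ± 0.78 on the log2 scale (adjusted p = 4.91e-08 and 3.96e-07). No basal library reached the lowest medial library for these 4 genes. EXPA4 was the exception, with 96.3, 102 and 70.3 CPM in basal and 43.0, 39.2 and 34.7 CPM in medial libraries (log2 1.20 ± 0.25, adjusted p = 0.00112). Counts of lower expansins were 6 with the covariate, 6 with the replicate block and 6 to 8 with 1 library left out.

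Xyloglucan endotransglucosylases, which cut and rejoin the hemicellulose tethers of the wall, moved in both directions, with 4 lower and 2 higher among 14 tested; the lower genes numbered 5 with the covariate or in DESeq2, and 4 to 7 with 1 library left out, the 7 without medial replicate 3. XTH19 read 4.56, 5.15 and 10.2 CPM in basal and 199, 186 and 126 CPM in medial libraries (log2 -4.67 ± 0.49, adjusted p = 4.45e-08). XTH17, its close homologue, fell by 4.69 ± 0.61 and XTH4 by 2.79 ± 0.41 on the log2 scale (adjusted p = 3.54e-06 and 8.81e-06). XTH24 was higher, with 916, 861 and 906 CPM in basal and 550, 352 and 311 CPM in medial libraries (log2 1.15 ± 0.27, adjusted p = 0.00277), as was XTH20 (log2 1.89 ± 0.31, adjusted p = 4.03e-05). Aquaporins, the membrane channels for water, gave 7 lower genes among 18 tested, 3 with the covariate, and 4 without basal replicate 1, basal replicate 2 or medial replicate 1. PIP2;7, a plasma membrane channel, read 240, 263 and 274 CPM in basal and 1979, 1476 and 1790 CPM in medial libraries (log2 -2.76 ± 0.21, adjusted p = 4.83e-12). TIP2;1, a vacuolar channel, read 1544, 1576 and 1600 CPM in basal and 9556, 6455 and 6300 CPM in medial libraries (log2 -2.24 ± 0.30, adjusted p = 1.30e-06). PIP1;3 fell by 1.57 ± 0.21 on the log2 scale (adjusted p = 1.73e-06), while TIP1;2 was not called (log2 -0.72, adjusted p = 0.0826).

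Markers of the shoot epidermis and cuticle were lower in basal segments. Of 20 genes tested, 12 fell and 8 did not pass the test, the median log2 difference was -1.69, and their summed level was 5754 to 7489 CPM in basal and 10764 to 13815 CPM in medial libraries. ATML1, which specifies the epidermal layer, read 143, 108 and 179 CPM in basal and 462, 529 and 392 CPM in medial libraries (log2 -1.68 ± 0.27, adjusted p = 1.80e-05). LTP2, a lipid-transfer protein of the cuticle, read 1037, 1161 and 1060 CPM in basal and 4267, 3606 and 3700 CPM in medial libraries (log2 -1.83 ± 0.23, adjusted p = 4.59e-07). The cutin synthesis gene GPAT8 and the cuticle gene BDG1 fell by 1.70 ± 0.28 and 2.34 ± 0.36 on the log2 scale (adjusted p = 3.45e-05 and 1.14e-05). Thus CYP86A1 and GPAT5 of suberin synthesis were higher, while CYP86A2 and GPAT8, their relatives in cutin synthesis, were lower. CER6, the elongase of surface wax, overlapped between regions, with 2459, 2209 and 3089 CPM in basal and 3499, 3156 and 2567 CPM in medial libraries (log2 -0.25, adjusted p = 0.634). In WT, too, 12 of the 20 fell. The epidermal markers moved in the same direction as the SAUR, expansin and aquaporin genes, and their part in those differences was not tested.

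Nuclear genes of photosynthesis were lower in basal segments as a group. The light-harvesting antenna binds chlorophyll and feeds energy to the photosystems; 15 of its 17 genes fell (median log2 -1.84), with summed levels of 2521 to 2638 CPM in basal and 6513 to 7294 CPM in medial libraries. Of 20 photosystem subunit genes, 16 fell (median log2 -1.67), with sums of 1423 to 1469 CPM in basal and 3037 to 3975 CPM in medial libraries. LHCA1 read 124, 122 and 113 CPM in basal and 447, 566 and 554 CPM in medial libraries (log2 -2.13 ± 0.28, adjusted p = 8.24e-07). PSBS, which triggers the shedding of excess light energy, read 0.933, 1.29 and 0.711 CPM in basal and 13.9, 28.3 and 19.2 CPM in medial libraries (log2 -4.42 ± 0.38, adjusted p = 1.18e-10). PSAK, a subunit of photosystem I, fell by 2.11 ± 0.23 on the log2 scale (adjusted p = 1.56e-08). Basal libraries were below all medial ones for each.

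Rubisco fixes carbon dioxide in the Calvin cycle, and 10 of 16 genes of this group fell (median log2 -1.44). In WT, 8 antenna, 10 photosystem and 7 Rubisco and Calvin cycle genes fell in edgeR's test, and 13, 13 and 8 in DESeq2. The interaction called 0 antenna and 0 photosystem genes, with 4 and 8 more negative in the mutant at an unadjusted p under 0.05 and 0 and 1 called by DESeq2, and it called 2 Rubisco and Calvin cycle genes. RBCS3B, a small subunit gene, read 4.35, 2.41 and 2.84 CPM in basal and 46.5, 85.7 and 81.1 CPM in medial libraries (log2 -4.45 ± 0.34, adjusted p = 5.19e-12). RBCS1A read 34.0, 31.5 and 30.0 CPM in basal and 130, 178 and 156 CPM in medial libraries (log2 -2.28 ± 0.27, adjusted p = 9.15e-08). The RBCS and LHCB copies are near-identical, so the split of reads among them is uncertain. PRK, phosphoribulokinase of the Calvin cycle, fell by 2.84 ± 0.38 (adjusted p = 1.20e-06), and rubisco activase RCA was not called (log2 -0.26). Of 11 chlorophyll synthesis genes 6 fell, among them GUN5, a subunit of magnesium chelatase, with 34.2, 44.1 and 33.3 CPM in basal and 78.6, 113 and 116 CPM in medial libraries (log2 -1.46 ± 0.20, adjusted p = 2.30e-06). Genes encoded in the chloroplast itself did not share the shift, with 1 higher and 0 lower of 84 tested, and supplied 1.47% to 1.77% of reads in basal and 1.49% to 1.60% in medial libraries; QuantSeq primes on poly(A), which is not a regular feature of chloroplast transcripts.

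Vascular markers split. Of 16 xylem and secondary wall genes, 8 fell, with a median log2 difference of -1.53; the count was 5 without basal replicate 1. CESA7 and CESA8, subunits of the cellulose synthase of the secondary wall, read 3.53, 2.90 and 4.06 CPM and 11.4, 13.4 and 20.5 CPM in basal libraries, against 15.2, 8.91 and 10.9 CPM and 56.5, 37.2 and 38.3 CPM in medial libraries (log2 -1.73 ± 0.40 and -1.54 ± 0.34, adjusted p = 0.00254 and 0.00179). XCP2, a protease of xylem vessel cell death, read 36.5, 30.3 and 42.2 CPM in basal and 106, 108 and 98.2 CPM in medial libraries (log2 -1.52 ± 0.36, adjusted p = 0.00326). FLA11, a secondary wall protein gene, fell by 1.85 ± 0.34 (adjusted p = 0.00016). Medial libraries were above basal ones for all 4. The summed level was 108 to 140 CPM in ahk3 ahk4 basal and 282 to 390 CPM in ahk3 ahk4 medial libraries, and 236 to 397 CPM in WT basal and 260 to 373 CPM in WT medial libraries. In WT 0 of the 16 genes were called by edgeR or DESeq2, and 0 reached an unadjusted p under 0.05. The interaction called none of them in edgeR (adjusted p = 0.214 for CESA7, 0.279 for CESA8 and 0.206 for XCP2), with 9 more negative in the mutant at an unadjusted p under 0.05, and DESeq2 called COBL4 (adjusted p = 0.0472). Of 13 phloem genes 2 rose and 0 fell, where 5.15% of all genes tested were called higher. CLE44, a phloem peptide gene that keeps cambium cells undifferentiated, read 6.64, 7.89 and 5.38 CPM in basal and 1.45, 0.709 and 1.34 CPM in medial libraries (log2 2.49 ± 0.54, adjusted p = 0.00149). The sugar exporter gene SWEET12 was the other (log2 1.63 ± 0.43, adjusted p = 0.0091); without medial replicate 2 its adjusted p was 0.0594 and with the covariate 0.0543. Of 10 cambium genes, PHV alone was called (log2 1.00, adjusted p = 0.032). It lost its call in 4 of 6 fits with 1 library left out, with an adjusted p up to 0.138. It was also not called with the replicate block (0.118).

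Genes listed as root markers were compared between the regions. Some of them were read in medial segments too, so the list cannot tell root tissue from hypocotyl. Of 11 listed, 6 passed the filter on low counts and 3 had no read in any of the 6 libraries; 3 of the 6 were higher in basal segments, and 2 with the covariate or in DESeq2. The call of NAI2, an ER body gene, was lost without any 1 of the 6 libraries (adjusted p up to 0.106) and with the covariate (0.532). BGLU22, a beta-glucosidase gene, read 312, 345 and 227 CPM in basal and 66.7, 21.0 and 17.6 CPM in medial libraries (log2 3.07 ± 0.52, adjusted p = 0.000127). MBP1, a myrosinase-binding protein gene, had 9.64, 4.02 and 2.03 CPM in basal and no read in medial libraries (at least 52.4-fold higher; adjusted p = 0.524 in DESeq2). BGLU23, the abundant glucosidase of ER bodies, was level, with 7574, 7406 and 6801 CPM in basal and 7537, 7164 and 6567 CPM in medial libraries. Root meristem genes PLT1, PLT2 and WOX5, the root cap gene SMB and the root hair genes RHD6, RSL2, RSL4 and COBL9 did not reach the filter. PHO1, which loads phosphate into the xylem, read 58.1, 69.7 and 65.9 CPM in basal and 30.1, 21.1 and 26.4 CPM in medial libraries (log2 1.32 ± 0.25, adjusted p = 0.000273). GL2, which represses hair fate, read 0.104, 0 and 0.305 CPM in basal and 1.67, 5.67 and 4.88 CPM in medial libraries (log2 -4.66 ± 1.19, adjusted p = 0.00706).

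Regulators of root founding and of wound regeneration gave few calls, and none that held throughout. Of 12 root founder genes, ARF19 rose and ARF7 fell. These auxin response factors act together in root initiation; ARF7 read 14.3, 12.6 and 15.3 CPM in basal and 23.7, 36.6 and 27.7 CPM in medial libraries (log2 -1.06 ± 0.29, adjusted p = 0.0128), and ARF19 differed by log2 1.51 ± 0.46 (adjusted p = 0.0257). With 1 library left out, the call of ARF7 was lost in 2 of 6 fits (adjusted p up to 0.0930). That of ARF19 was lost in 4 of 6 (up to 0.176). LBD16, their target in root founder cells, read 12.6, 18.7 and 9.24 CPM in basal and 8.81, 8.20 and 5.17 CPM in medial libraries (log2 0.86, adjusted p = 0.122), and WOX11 had no read in any of the 6. WIND1, a wound-induced regulator of dedifferentiation, read 176, 169 and 186 CPM in basal and 92.5, 90.1 and 82.6 CPM in medial libraries (log2 1.00 ± 0.32, adjusted p = 0.0331). The libraries did not overlap, yet leaving out any 1 of the 6 libraries took the adjusted p above 0.05, to 0.0979 without medial replicate 3. AT1G36060, an AP2/ERF factor gene of the same list, was also called (log2 1.26 ± 0.37, adjusted p = 0.0196), but not without basal replicate 2 (0.137).

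Glucosinolate and jasmonate genes were among those higher in basal segments. Glucosinolates are defence compounds that release toxins on wounding. CYP79B2, which starts indolic glucosinolate and camalexin synthesis from tryptophan, read 56.8, 67.4 and 48.0 CPM in basal and 6.58, 15.9 and 10.6 CPM in medial libraries (log2 2.38 ± 0.31, adjusted p = 5.85e-07). Its homologue CYP79B3 read 84.5, 50.4 and 73.3 CPM in basal and 10.5, 34.7 and 18.9 CPM in medial libraries (log2 1.70 ± 0.31, adjusted p = 0.000127). These and CYP83B1, the next enzyme, were the 3 called of 10 indolic genes; CYP83B1 lost its call without medial replicate 1 (adjusted p = 0.122). Of 11 aliphatic genes, 4 rose and 1 fell, and with the replicate block 1 rose. The sulfotransferase gene SOT17 read 44.3, 32.5 and 21.5 CPM in basal and 3.23, 13.4 and 11.9 CPM in medial libraries (log2 1.78 ± 0.33, adjusted p = 0.000219). MYB28, the master regulator of the aliphatic branch, was the gene that fell, with 17.2, 12.7 and 17.5 CPM in basal and 18.3, 44.3 and 43.4 CPM in medial libraries (log2 -1.16 ± 0.27, adjusted p = 0.00312; 0.0695 with the replicate block).

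Of 19 jasmonate genes, 3 rose, where 5.15% of all genes tested were called higher. VSP2, a storage protein gene induced by jasmonate, read 29.4, 29.9 and 19.4 CPM in basal and 3.01, 1.42 and 0.861 CPM in medial libraries (log2 3.90 ± 0.85, adjusted p = 0.00219), and VSP1 rose by 4.45 ± 1.10 (adjusted p = 0.00531). LOX2, a lipoxygenase of jasmonate synthesis, had 5.18, 3.70 and 3.15 CPM in basal and no read in medial libraries, at least 39.5-fold higher (adjusted p = 0.0223). DESeq2 did not call it (adjusted p = 0.112). In edgeR it lost its call in 3 of 6 fits with 1 library left out (adjusted p up to 0.0829). The JAZ repressor genes tested, which jasmonate induces rapidly, were not called. Of 17 genes of the rapid touch and wound response, 1 rose and 2 fell. Over all genes tested 5.15% were called higher and 7.23% lower, so these counts were close to those shares. The calcium sensor genes TCH3 and TCH2 fell, TCH3 with 148, 147 and 118 CPM in basal and 442, 325 and 327 CPM in medial libraries (log2 -1.41 ± 0.25, adjusted p = 8.76e-05). BAP1, a membrane-binding inhibitor of cell death, rose by 1.90 ± 0.38 (adjusted p = 0.000568).

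By difference in mean level, the gene that gained most in basal segments was PRXR1, a peroxidase gene, with 33121, 41764 and 27600 CPM in basal and 16739, 11349 and 16524 CPM in medial libraries (log2 1.20 ± 0.30, adjusted p = 0.00493). Without medial replicate 2 its adjusted p was 0.0507. EBP, an ethylene response factor gene, read 2954, 3497 and 2752 CPM in basal and 828, 463 and 621 CPM in medial libraries (log2 2.27 ± 0.30, adjusted p = 1.07e-06). AT4G11320, a papain family protease gene, read 5870, 6317 and 6145 CPM in basal and 2928, 2062 and 2501 CPM in medial libraries (log2 1.29 ± 0.25, adjusted p = 0.000311). The groups did not overlap for any of the 3. Among the most reduced were glycine-rich protein genes GRP23, with 751, 671 and 1222 CPM in basal and 7676, 6219 and 4548 CPM in medial libraries (log2 -2.80 ± 0.40, adjusted p = 6.60e-06), and GRP5 (log2 -1.78 ± 0.38, adjusted p = 0.00124). AT1G12080, a vacuolar calcium-binding protein-like gene, read 601, 742 and 726 CPM in basal and 3903, 2929 and 4277 CPM in medial libraries (log2 -2.43 ± 0.23, adjusted p = 7.56e-10).

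GER3, a germin gene, had no basal read and 19.1, 67.7 and 53.3 CPM in medial libraries, 0 counts against 1397, which is at least 409-fold lower. RGF6, which encodes a secreted root meristem growth factor peptide, read 0, 0 and 0.102 CPM in basal and 28.7, 33.7 and 34.0 CPM in medial libraries; it was 829-fold higher in medial segments by summed counts (95% counting interval 148 to 32793). The GDSL lipase gene AT5G45670 was at least 120-fold lower, and AT3G42800, AT2G27385 and AT5G49170 at least 89.8-fold, 77.5-fold and 69.6-fold lower.

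**Figure D2:**
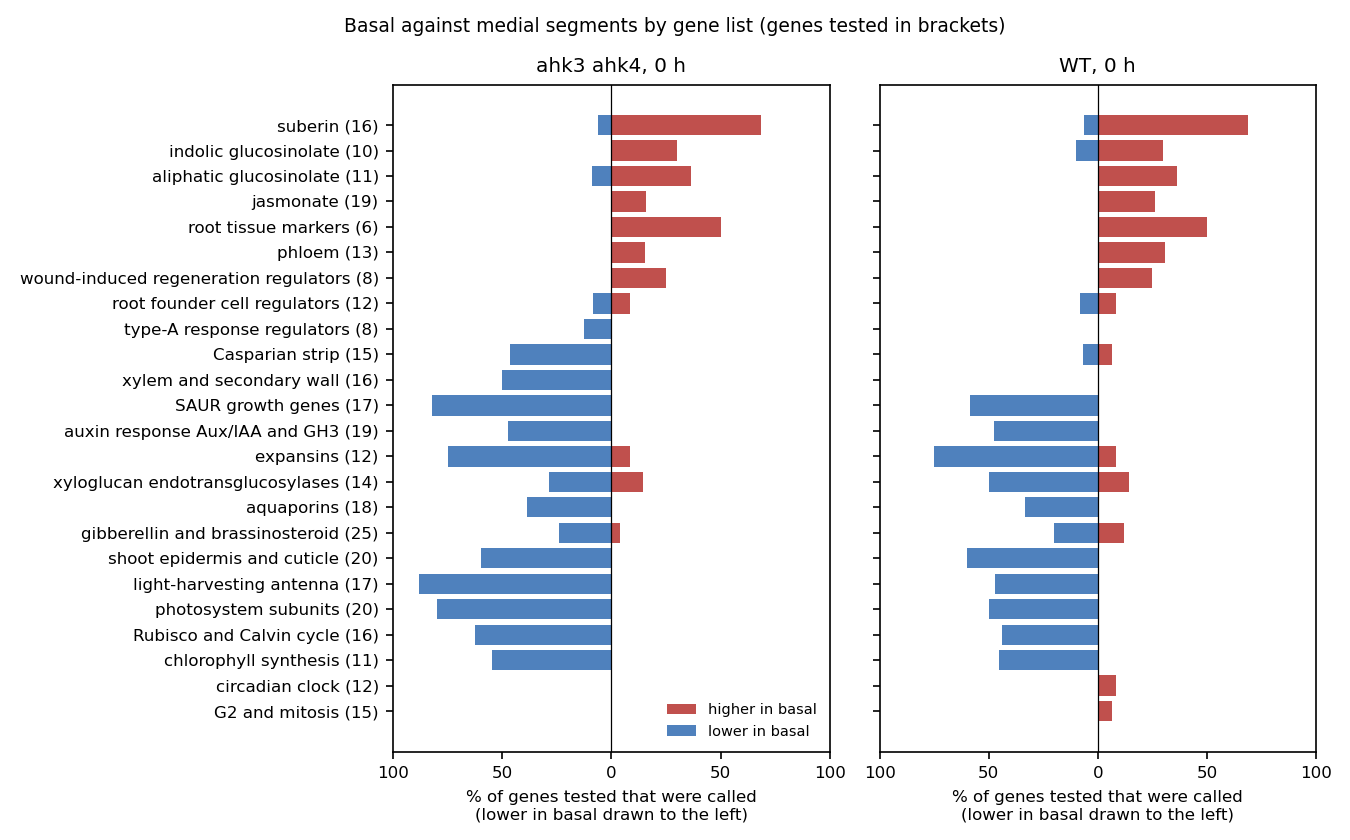
Percent of the tested genes of 24 lists called higher (bars to the right of 0) or lower (bars to the left) in basal than in medial segments at 0 h, in ahk3 ahk4 (left panel) and in WT (right panel). Suberin stands out to the right in both panels, photosynthesis, SAUR, expansin and epidermis lists to the left in both, and the xylem list has bars in ahk3 ahk4 and none in WT.

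Other lists gave few or no calls, where 5.15% of all genes tested were called higher and 7.23% lower. Salicylic acid genes gave 2 higher of 5, and 0 with only the compared groups fitted; these were ICS1 (adjusted p = 0.0698 in that fit) and PAD4 (0.107). Ion uptake genes gave 1 higher and 2 lower of 15, and 2 higher and 1 lower with the covariate. Type-B regulators and CRF factors gave 1 higher of 11, cytokinin synthesis 1 higher and 1 lower of 11, and ribosome biogenesis 1 higher of 5, and with the covariate each of these counts was 0. Root hair genes gave 2 lower of 5, and the stomatal and shoot apex lists 1 lower each, of 3 and 5; the root hair count was 1 and the stomatal count 0 with the replicate block, and the shoot apex count was 0 with the covariate. Of 15 genes of G2 and mitosis none was called; 1 higher and 2 lower reached an unadjusted p under 0.05, and DESeq2 called 1 lower. Of 12 DNA replication genes 1 was lower, and of 12 D-type cyclins and cell cycle inhibitors 1 was higher. None of 12 circadian clock genes was called, with 1 higher and 1 lower at an unadjusted p under 0.05 and 1 higher in DESeq2. None of 10 low oxygen genes was called, with 1 higher at an unadjusted p under 0.05 and none in DESeq2. Cytokinin breakdown gave none of 5, with none at an unadjusted p under 0.05 and none in DESeq2. The ethylene, abscisic acid, flavonoid, phenylpropanoid, shade and dark lists gave 1 to 3 calls each, of 9 to 15 genes. With 1 library left out, ACS2, TT7, HAT1 and ASN1 of these lists kept their calls in all 6 fits. RD29B, RD22, MYB90, TT4, FAH1, HFR1 and DRM2 lost theirs in some, DRM2 in 5 of 6. The lowest log2 difference of MYB90 in these fits was -0.00. It averaged 0.271 ± 0.469 CPM in basal and 0 CPM in medial segments (SD, n = 3 each), and its basal reads came from replicate 3 alone. With only the compared groups fitted, ACS2 and TT7 were not called (adjusted p = 0.0719 and 0.0974). Nor were ACS2 and TT7 called with the replicate block (0.0750 and 0.192). HFR1, a shade response regulator, was the higher gene of the shade list, with 14.0, 15.6 and 16.1 CPM in basal and 3.23, 1.42 and 3.25 CPM in medial libraries (log2 2.53, adjusted p = 0.0165), and its adjusted p was 0.290 with the covariate.

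The regional differences of the mutant overlapped with those of WT. Of the 1020 genes higher in ahk3 ahk4 basal segments, 530 were called higher in WT basal segments as well, which is 52.0% of the mutant's and 46.2% of WT's higher genes; 1 was called lower in WT. Of the 1432 lower genes, 739 were called lower in WT, 51.6% of the mutant's and 55.6% of WT's; 5 were called higher. Across all genes the log2 differences of the genotypes correlated at Pearson's r of 0.557, a value over genes, which are not independent. The interaction called 6 genes whose basal over medial difference was more positive in the mutant (0.0303%) and 41 for which it was more negative (0.207%). Of the 41, 18 were lower in mutant basal segments and not called in WT, 9 were lower in both, 8 were not called in the mutant and higher in WT, 5 were lower in the mutant and higher in WT, and 1 was higher in both.

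XTH32, another wall-remodelling endotransglucosylase, showed the difference between genotypes with the lowest adjusted p of the genes named here. It read 1.87, 0.644 and 3.35 CPM in ahk3 ahk4 basal and 37.9, 45.8 and 46.0 CPM in ahk3 ahk4 medial libraries, and 7.44, 12.1 and 11.2 CPM in WT basal and 10.6, 13.1 and 10.6 CPM in WT medial libraries. The regions of the mutant did not overlap and those of WT did, with log2 differences of -4.39 in ahk3 ahk4 and -0.16 in WT (interaction -4.23 ± 0.38, adjusted p = 3.88e-09). RGF6 fell in both genotypes and more in the mutant (interaction -5.88 ± 1.02, adjusted p = 0.00738); its WT libraries read 34.4, 24.9 and 18.7 CPM in basal and 227, 298 and 304 CPM in medial segments. SAUR20 did the same (interaction -5.49 ± 0.95, adjusted p = 0.00788), with 7.22, 7.94 and 8.64 CPM in WT basal and 47.2, 46.0 and 46.6 CPM in WT medial libraries. These 3 interactions kept their call in each of the 12 fits that left out 1 library.

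RBCS3B also fell more in the mutant (interaction -2.06 ± 0.42, adjusted p = 0.0230); in WT it read 15.6, 9.23 and 16.7 CPM in basal and 73.2, 84.4 and 59.9 CPM in medial libraries. STP1, a sugar uptake transporter gene, differed the other way (interaction 1.85 ± 0.36, adjusted p = 0.0129). It read 152, 173 and 179 CPM in ahk3 ahk4 basal and 159, 200 and 184 CPM in ahk3 ahk4 medial libraries, which overlapped, and 233, 180 and 225 CPM in WT basal and 1014, 584 and 879 CPM in WT medial libraries, which did not. Without WT medial replicate 1 the adjusted p was 0.0655. NF-YA1, a subunit of a CCAAT-binding factor, was higher in basal segments of the mutant (log2 1.14, adjusted p = 0.0149) and lower in basal segments of WT (adjusted p = 0.0334). Its interaction was 2.14 ± 0.46 (adjusted p = 0.0245), 0.102 without WT medial replicate 1 and 0.0631 with the covariate. With 1 library left out, this call was lost in 7 of 12 fits.

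**Figure D3:**
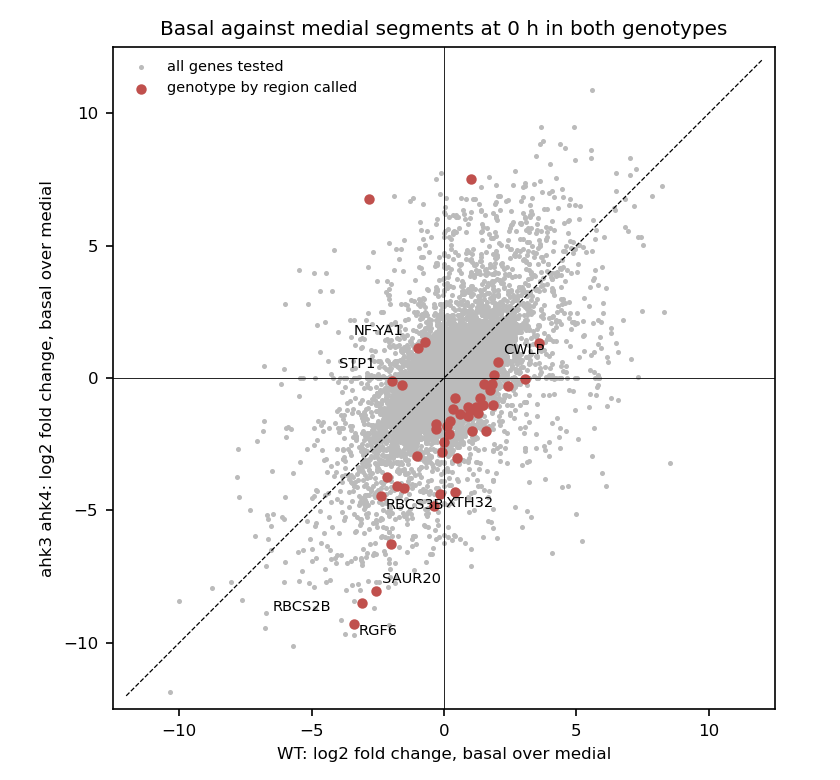
Log2 difference between basal and medial segments at 0 h in ahk3 ahk4 (vertical axis) against that in WT (horizontal axis) for the 19819 genes tested; red points are the 47 genes whose difference between genotypes was called, and the dashed line marks equality. Most red points lie below the line, and XTH32 lies far below it near 0 on the WT axis.

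Regional differences at 0 h carried over only in part to 8 and 16 h. In the mutant, 1166 genes were higher in basal segments at 8 h (5.88%) and 1456 lower (7.35%), and 2682 were higher (13.5%) and 2585 lower (13%) at 16 h, 26.6% in all. Of the 1020 genes higher at 0 h, 321 were also higher at 8 h (31.5% of the 0 h and 27.5% of the 8 h genes) and 301 at 16 h (29.5% and 11.2%), while 33 and 98 were called lower. Of the 1432 lower at 0 h, 520 were also lower at 8 h (36.3% and 35.7%) and 527 at 16 h (36.8% and 20.4%), while 44 and 160 were called higher. Suberin gave 9 higher genes at 8 h and 10 at 16 h of 16, and photosystem subunits 18 and 20 lower genes of 20. Casparian strip genes gave 10 and 11 lower genes of 15. Some lists did not keep their 0 h pattern. Xyloglucan endotransglucosylases gave 3 higher and 3 lower of 14 at 8 h, and 9 higher and 1 lower at 16 h. Aux/IAA and GH3 genes gave 3 higher and 2 lower of 19 at 8 h, and 4 and 2 at 16 h. Aliphatic glucosinolate genes gave 0 higher at both times, and 3 and 7 lower of 11. Xylem genes gave 1 higher and 1 lower of 16 at 8 h, and 0 and 3 at 16 h.

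CASP1 averaged 228 ± 17.7 CPM in basal and 597 ± 227 CPM in medial segments at 0 h, 26.1 ± 8.70 and 209 ± 19.1 CPM at 8 h, and 27.0 ± 8.50 and 576 ± 27.8 CPM at 16 h (SD, n = 3 each; log2 -3.00 and -4.41 at 8 and 16 h, adjusted p = 3.02e-09 and 1.20e-12 in edgeR's test). RBCS3B averaged 3.20 ± 1.02 CPM in basal and 71.1 ± 21.4 CPM in medial segments at 0 h, 30.3 ± 1.25 and 348 ± 40.7 CPM at 8 h, and 128 ± 33.4 and 1056 ± 247 CPM at 16 h. The basal level was thus below the medial level at each time for both genes. EBP, higher in basal segments at 0 h, had log2 differences of -0.07 at 8 h (adjusted p = 0.919) and -1.32 at 16 h (adjusted p = 0.000839). TIP2;1, lower at 0 h, had -0.10 at 8 h (adjusted p = 0.873) and 1.91 at 16 h (adjusted p = 9.50e-06), and PIP2;7 had -0.29 and 0.04 (adjusted p = 0.378 and 0.912). WIND1 had a log2 difference of 2.09 at 16 h (adjusted p = 1.21e-05), and LBD16 one of 2.48 at 8 h (adjusted p = 6.85e-06). The change of a regional difference between times was not tested.

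**Figure D4:**
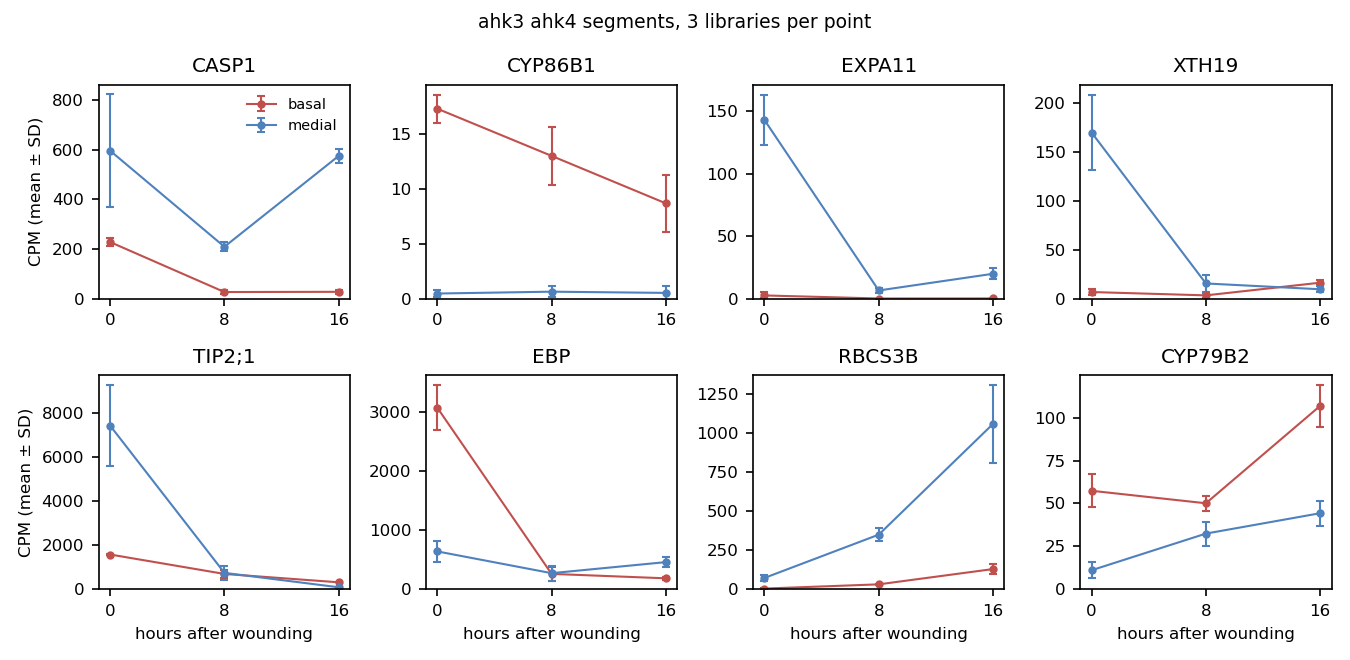
Mean CPM ± SD (n = 3 libraries) of 8 genes at 0, 8 and 16 h after wounding in ahk3 ahk4 basal (red) and medial (blue) segments. The basal and medial lines stay apart for CASP1, CYP86B1 and RBCS3B. Those of TIP2;1 and EBP come close by 8 h and have crossed by 16 h.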

How the data were processed

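Raw counts of reads per locus were deposited, 1 file for each library, with 32833 loci and 5 lines that name no gene. The authors counted with HTSeq and used DESeq2, per the submitters' processing notes, which give no versions; no source used here names the aligner, genome build, annotation or strand setting. No coordinates or sequences are therefore printed, and reads of antisense neighbours may not be told apart. The lines that name no gene, 4.59% to 62.2% of reads, were left out of library sizes and tests. Assigned reads ran from 6136167 to 13557332 per library over the 36 libraries. Gene names came from RefSeq's gene table; 623 of 638 listed loci had one there.

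All 36 libraries were fitted together as 12 groups with edgeR 4.0.16 in R 4.3.3 (TMM factors, the default filter on low counts at the group size of 3, quasi-likelihood test, 24 residual degrees of freedom, Benjamini-Hochberg adjustment over 19819 genes; biological coefficient of variation 0.336). A gene was called at an adjusted p under 0.05. The procedure was tested on simulated data. CPM used TMM-scaled library sizes. Counting intervals and floors cover counting error only. Alternatives were RLE and upper-quartile factors, filters, DESeq2 1.42.0, a fit of the compared groups alone, a replicate block, the share of multiply aligned reads as a covariate, and leaving out each library. Tables and figures were made with Python 3.11.15, pandas 2.3.3 and matplotlib 3.10.9.

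Named were the 12 highest and 12 lowest log2 differences among called genes with no overlap of libraries and a mean of at least 5 CPM in the higher region, the 6 largest gains and losses in mean CPM, up to 5 members per list by adjusted p, the receptors and type-A regulators, and 6 interactions each way; other list members are given by value. The gene lists and members were chosen with earlier results of these data known. No 2 libraries of a region differed by less than sampling noise (lowest chi-square per degree of freedom 9.79). Deviations from the group mean in same-numbered basal and medial libraries at 0 h correlated at -0.00259, -0.0886 and -0.177 in ahk3 ahk4. In WT at 0 h the values were 0.0264, 0.134 and 0.0497. With 3 libraries a group, such values cannot show whether the numbers pair the libraries. A planned search of promoters for motifs was not run. The results of 1 listed gene are not reported here.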

Additional observations from a re-analysis of the deposited data

Results flagged for a closer look

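A difference between genotypes in the basal over medial comparison at 0 h was called by edgeR's interaction test for 12 genes named by the rule for naming. In 4 of them the mutant's basal level was at or near no reads: RGF6 (-5.876 on the log2 scale), SAUR20 (-5.490), RBCS2B (-5.423) and SAUR24 (-4.268). RBCS2B read 0, 0.161 and 0 CPM in ahk3 ahk4 basal and 11.1, 26.2 and 18.9 CPM in ahk3 ahk4 medial libraries, and 2.59, 3.37 and 2.18 CPM in WT basal and 20.5, 27.6 and 20.9 CPM in WT medial libraries; its adjusted p was 0.0431, and the call was lost in 10 of 12 fits with 1 library left out. SAUR24 (adjusted p = 0.0263) lost its call in 7 of 12. XTH32 (-4.230) and the kinase-like gene AT3G46280 (-3.509) were called lower in basal segments of the mutant and were not called in WT. AT3G46280 read 0.207, 1.45 and 0.305 CPM in ahk3 ahk4 basal and 5.91, 5.57 and 2.68 CPM in ahk3 ahk4 medial libraries, and 4.06, 4.96 and 8.38 CPM in WT basal and 4.26, 5.08 and 3.09 CPM in WT medial libraries (adjusted p = 0.0230; 0.0890 without ahk3 ahk4 basal replicate 1).

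The other values were NF-YA1 (2.141), the mitochondrial carrier gene AT3G53940 (2.072), STP1 (1.850), AT5G13100 (1.322), the pectin methylesterase gene PMEPCRF (-1.191) and the wall linker protein gene CWLP (-1.434). CWLP had a log2 difference of 0.61 in the mutant (adjusted p = 0.0693) and of 2.05 in WT (adjusted p = 8.12e-08), with 480, 466 and 544 CPM in ahk3 ahk4 basal and 253, 348 and 374 CPM in ahk3 ahk4 medial libraries, and 1573, 1301 and 1444 CPM in WT basal and 394, 272 and 378 CPM in WT medial libraries (adjusted p = 0.0328; 0.110 without ahk3 ahk4 basal replicate 2). AT5G13100 read 59.6, 70.5 and 43.5 CPM in ahk3 ahk4 basal and 78.0, 67.3 and 63.4 CPM in ahk3 ahk4 medial libraries, and 69.8, 73.4 and 78.5 CPM in WT basal and 221, 213 and 234 CPM in WT medial libraries (adjusted p = 0.0245; 0.110 without ahk3 ahk4 basal replicate 2). PMEPCRF (adjusted p = 0.0308) and AT3G53940 (0.0262) each lost the call in 8 of 12 fits with 1 library left out. AT5G13100 also lost it in 8 of 12, and CWLP in 10. The call was lost in 7 of 12 such fits for NF-YA1, 6 for AT3G46280 and 2 for STP1.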

How the results depend on the processing

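Upper-quartile factors changed no call among the 174 gene results named, and RLE factors ended 2, DESeq2 3, no filter 6, the fit of the compared groups alone 10 and the covariate 26. The median log2 difference of all genes was 0.018 in the main fit, 0.038 with RLE factors and 0.000 with upper-quartile factors. With the covariate, 2 type-A regulators that were not called turned sign, ARR6 (-0.19) and ARR8 (-0.60). With 1 library left out, AHK3 ranged from -0.10 to 0.41 (-0.09 and -0.08 without basal replicates 1 and 3), ARR6 from -0.03 to 0.17, ARR15 from -4.97 to 0.00 and MYB90, the only one called, from -0.00 to 5.28. The replicate number was tried as a block, with only the compared groups fitted; it gave 636 higher and 828 lower genes in ahk3 ahk4 at 0 h, 2002 higher in WT, 21 negative interactions, and 251 higher and 439 lower genes at 8 h, and ended 23 named calls. Without the block, the compared groups alone gave 1836 higher genes in WT, 27 positive interactions, and 423 higher and 740 lower at 8 h. Positive interactions numbered 10 with no filter, 12 with the covariate and 60 in DESeq2, and negative ones 111 in DESeq2. With 1 library left out, ahk3 ahk4 at 0 h gave 554 to 919 higher and 973 to 1271 lower genes, WT 819 to 961 and 852 to 1129 (852 without basal replicate 2), the interaction 0 to 9 positive and 12 to 64 negative, 8 h 860 to 1167 and 1042 to 1349, and 16 h 1660 to 2717 (1660 without medial replicate 1) and 1834 to 2813. An interaction count moved by over 1.5 times without any 1 library other than WT basal replicate 1, WT medial replicate 2 and ahk3 ahk4 medial replicates 1 and 3. The cause of these shifts was not tested. With 3 libraries a group, differences of genes at a few CPM are the least certain.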

Other observations

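Gene families grouped by RefSeq product names, chosen after their values were seen, add the following. For comparison, 5.15% of all genes tested were called higher in basal segments and 7.23% lower. Of 46 GDSL lipases tested, 14 were lower and 4 higher in basal than in medial ahk3 ahk4 segments; AT3G16370 averaged 33.4 ± 16.9 CPM in basal and 934 ± 59.9 CPM in medial segments (SD, n = 3 each; log2 -4.80 ± 0.38, adjusted p = 2.77e-11 in edgeR's quasi-likelihood test). Of 32 arabinogalactan protein genes, 15 were lower and 1 higher, among them AGP4, with 92.9 ± 26.4 CPM in basal and 755 ± 114 CPM in medial segments (log2 -3.02 ± 0.35, adjusted p = 7.74e-08); with the share of multiply aligned reads as a covariate 9 were lower and 1 higher. Of 41 pectin lyase-like genes, 17 were lower and 2 higher, and of 10 beta-galactosidase genes 5 were lower. BGAL10, which trims xyloglucan side chains, averaged 4.42 ± 0.44 CPM in basal and 43.4 ± 13.4 CPM in medial segments (log2 -3.30 ± 0.35, adjusted p = 1.70e-08).

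Peroxidases moved both ways, with 14 higher and 7 lower of 41. RCI3 averaged 123 ± 30.8 CPM in basal and 459 ± 59.2 CPM in medial segments (log2 -1.90 ± 0.21, adjusted p = 3.21e-08). Of 39 MATE efflux transporters, 8 were higher and 1 lower, and of 43 WRKY factors 10 were higher. AT5G38030, a MATE gene, averaged 31.0 ± 6.62 CPM in basal and 2.84 ± 1.21 CPM in medial segments (log2 3.45 ± 0.40, adjusted p = 9.01e-08). WRKY26 averaged 27.1 ± 4.03 CPM in basal and 4.95 ± 2.16 CPM in medial segments (log2 2.44 ± 0.48, adjusted p = 0.000447). With the same covariate, 4 WRKY factors were higher and 1 lower, while the peroxidase counts stayed at 14 and 7. Of 80 MYB factors 15 were higher and 5 lower, and MYB14 averaged 25.5 ± 5.38 CPM in basal and 9.34 ± 2.14 CPM in medial segments (log2 1.45 ± 0.29, adjusted p = 0.00065); with the covariate the counts were 9 and 3. Among 280 ribosomal protein genes, 5 were higher and 15 lower, both smaller shares than over all genes tested.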
